A study of Arabidopsis thaliana with 6 samples.

Results

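The plant cuticle is the wax and cutin layer that covers the shoot epidermis, and 43 Arabidopsis thaliana genes for making, exporting or regulating it were followed on 6 single-colour oligonucleotide arrays. They were picked by locus from textbook functions, with earlier results of these data known. All 43 were among the 21297 genes with a probe well above background on at least 1 array. Of the 43 genes, 16 encode condensing enzymes of the 3-ketoacyl-CoA synthase (KCS) family, 4 other parts of fatty acid elongation, 2 acyl-CoA synthetases, 5 enzymes that turn long acyl chains into waxes, 9 cutin enzymes, 3 export proteins and 4 transcription factors. The RNA came from plants that were 21 days old, sampled as shoot apical meristem with juvenile leaves, and each array holds a pool of 30 plants. The question here is how these genes stood after the inducible construct AMY3C-EY was switched on, and how much of that was shared by the controls.

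All plants carried XVE, a chimeric activator that turns on its target promoter once the steroid 17-β-estradiol is added. The promoter that drives XVE, the tissue it is active in and the product of AMY3C-EY are not described in the labels. Plants with AMY3C-EY were sampled at 0 h of estradiol, taken here as untreated, and 1, 3 and 6 h after 20 µM estradiol was brushed onto the meristems. The other controls were sampled at 6 h: AMY3C-EY plants that received the solvent, DMSO, and plants with XVE but no AMY3C-EY that received estradiol. No solvent or XVE control was sampled at 1 h or 3 h, so estradiol, the construct, brushing and elapsed time cannot be told apart at those times. Each of the 6 groups is 1 array. No difference below therefore has a replicate check or a test, and precision is limited by how few arrays there are.

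Waxes are made from very long acyl chains that an elongase complex in the endoplasmic reticulum extends in steps: a KCS enzyme condenses, and a reductase, a dehydratase and a further reductase complete each turn. The chains are then turned into aldehydes, alkanes and ketones, or into alcohols and esters, while cutin is a polyester of hydroxylated fatty acids joined to glycerol. Transporters of the ABCG family and lipid transfer proteins carry the products to the outer face of the epidermis. In shoots of Arabidopsis the transcription factors MYB94 and MYB96 activate wax genes under drought and abscisic acid, and SHN1 raises cutin and wax genes when overexpressed.

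Levels are log2 processed signals after subtraction of each array's 75th percentile, and a difference is between 2 such levels, so a difference of 1 is 2-fold. A gene was counted as at least 2-fold apart only if at least 1 of its probes was well above background on each of both arrays compared. Levels of different genes were not set against each other, because their probes differ. The 75th percentile of the signal ran from 341.6 in the XVE control and 481.8 at 1 h to 1435.4 at 3 h, and 67.9% to 77.5% of spots were well above background. The estradiol time course filled 1 slide of 4 arrays and both other controls shared another slide, so slide cannot be told apart from group in any comparison between these sets. AMY3, whose symbol the name of the construct contains, was at 1.34, 2.49, 3.55 and 3.88 at 0, 1, 3 and 6 h, and at 2.47 in the XVE and 2.53 in the DMSO control. Of the markers of the outermost cell layer that makes the cuticle, all 11 were well above background on all 6 arrays, ATML1, PDF2 and PDF1 among them. The meristem markers STM, CLV1, KNAT1, KNAT2 and CUC2 were well above background on all 6 arrays, and CUC3 on all but the XVE array. The stem cell peptide gene CLV3 was so on all 6 as well, between 0.16 and 1.03. WUS, CUC1 and UFO were not well above background on any array, and AIL6 had no probe. In bulk tissue, fewer cells of a type and less RNA per cell cannot be told apart.

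**Figure D1:**
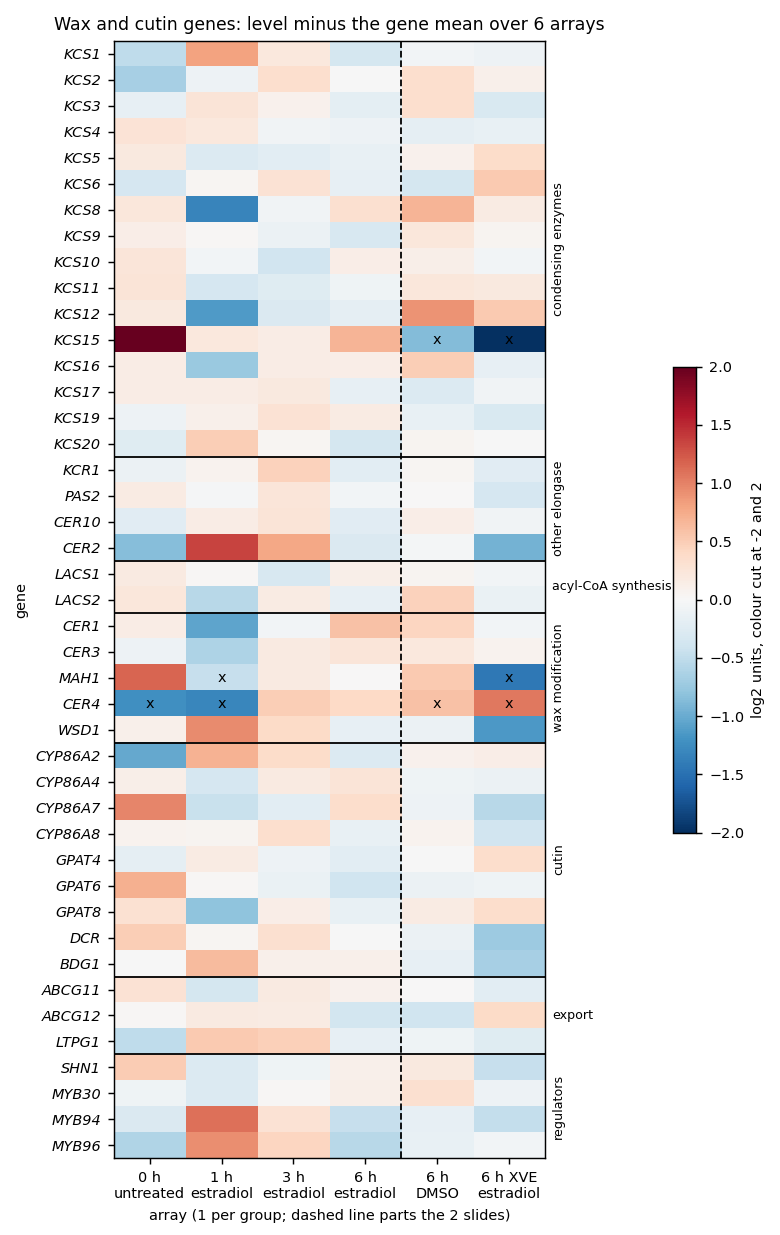
Level of each of the 43 genes minus its own mean over the 6 arrays, in log2 units (colour, cut at -2 and 2), with genes in rows by role and the arrays in columns. A cross marks a value not well above background, and the dashed line parts the 2 slides; MYB94, MYB96, CER2, KCS1 and CYP86A2 are red at 1 h, and KCS8, KCS12 and CER1 are blue.

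The 1 h array held the most cuticle genes apart from 0 h. Of 41 genes measured on both arrays, 6 lay at least 2-fold above 0 h and 6 as far below it, 14.6% in each direction, against 6.31% higher and 6.38% lower among all 18552 genes. The higher genes were CER2, CYP86A2, MYB96, MYB94, KCS1 and LTPG1, and the lower ones KCS15, KCS8, CYP86A7, KCS12, CER1 and GPAT8. CER1 and GPAT8 passed 2-fold only through a probe that was dim at 1 h. With only the probes well above background on both arrays, a rule added after the data were seen, 4 genes were lower, against 6.09% of all genes, and the same 6 were higher. The median difference of the 41 was -0.11 against -0.08 for all genes. Above 0 were 17, where 44.7% of all genes were, and 24 were below. Under cyclic loess scaling 60.6% of the calls over all genes were higher, against 49.7% on the scale used here. With the normexp background correction CYP86A7 and KCS8 remained at least 2-fold lower, and KCS15 (-0.96), KCS12 (-0.85), CER1 (-0.49), GPAT8 (-0.33), MYB94 (0.78) and LTPG1 (0.93) were inside 2-fold.

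The regulators divided. MYB96 (AT5G62470) read -0.34, 1.19, 0.69 and -0.30 over 0, 1, 3 and 6 h of the time course, the order in which values of the time course are given below, and 0.20 in the XVE and 0.11 in the DMSO control. Its 1 h and 3 h values lay above the other 4 arrays, by 1.53 and 1.03 from 0 h, and its 6 h value was 0.04 from 0 h. MYB94 (AT3G47600), its close relative, was at -2.83, -1.43, -2.25 and -2.99 over the time course, -3.02 in the XVE and -2.70 in the DMSO control, a difference from 0 h of 1.40 at 1 h and 0.58 at 3 h. SHN1 (AT1G15360), an AP2-type factor, had the opposite order, with 3.64, 2.85, 3.05 and 3.23 over the time course and 2.67 and 3.33 in the XVE and DMSO controls. It was thus highest at 0 h, although no array differed from that by 2-fold. MYB30 (AT3G28910), which activates very-long-chain fatty acid genes in the hypersensitive response, varied least of the 4, from 0.43 at 1 h to 1.02 with DMSO, and its 2 probes moved in opposite directions between 0 h and 1 h (-0.56 and 0.18).

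Of the 4 elongation genes outside the KCS family, CER2 stood farthest from 0 h. CER2 (AT4G24510), a BAHD-family protein needed to extend chains to the lengths used for stem and leaf wax, read 0.19, 2.39, 1.82 and 0.76 over the time course, with 0.10 in the XVE and 1.00 in the DMSO control. That is 4.62-fold above 0 h at 1 h and 3.10-fold at 3 h, and both values lay above all other arrays. KCR1 (AT1G67730), the ketoacyl reductase, was at 2.13, 2.33, 2.71 and 2.04 over the time course and at 2.03 and 2.29 in the XVE and DMSO controls, a spread under 2-fold with the highest value at 3 h. The enoyl reductase gene CER10 (AT3G55360; -0.02, 0.36, 0.47 and -0.02, then 0.14 and 0.34) was likewise highest at 3 h, but its 2 probes disagreed: between 0 h and 1 h they differed by -0.10 and 0.85. PAS2 (AT5G10480), the dehydratase, stayed between -0.08 and 0.49. At 3 h all 4 of these genes were above 0 h, where 46.0% of all genes were. The differences ran from 0.06 (PAS2) to 1.63 with a median of 0.53, and the probes of CER10 disagreed again (-0.02 and 1.00).

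The 16 condensing enzymes moved in both directions at 1 h, with 1 at least 2-fold higher, 3 lower and a median of -0.09. Among all genes 6.31% were higher and 6.38% lower. KCS1 (AT1G01120), with a broad role in very-long-chain elongation in shoots, read 1.68, 2.99, 2.39 and 1.84 over the time course and 2.08 and 2.13 in the XVE and DMSO controls. Its difference from 0 h was 1.31 at 1 h and 0.71 at 3 h, both above every other array. KCS20 (AT5G43760) was 0.74 higher at 1 h, with 3 clearly detected probes at differences of 0.31 to 1.34 and a 4th that was dim on both arrays. KCS2 (AT1G04220), which with KCS20 acts in root suberin and in wax, was at -2.37, -1.82, -1.38 and -1.72 over the time course and at -1.61 and -1.37 in the XVE and DMSO controls. It was lowest at 0 h, 0.99 above that at 3 h and 1.00 above it with DMSO. KCS6 (AT1G68530), the main condensing enzyme for shoot wax, was 0.37 higher at 1 h and 0.63 at 3 h; 5 of its 6 probes were higher at both times, 1 of them dim at 0 h, and 1 was lower.

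KCS8 and KCS12 showed the opposite course. KCS8 (AT2G15090) read 1.14, -0.42, 0.84 and 1.23 over the time course, with 1.07 in the XVE and 1.58 in the DMSO control, so that it was 2.96-fold lower at 1 h than at 0 h and lay within 0.30 of the 0 h level by 3 h. KCS12 (AT2G28630) was at -1.14, -2.47, -1.63 and -1.52, and at -0.82 and -0.44 in the XVE and DMSO controls, lowest at 1 h, 1.33 below 0 h. KCS15 (AT3G52160) was at -1.79 at 0 h and -3.80, -3.86 and -3.33 at 1, 3 and 6 h, differences of -2.02, -2.07 and -1.54, and was not well above background in the XVE and DMSO controls. It was at least 4.93-fold and at least 6.86-fold lower on those than at 0 h. Each bound sets the bright level against the dim level or, where that is lower, against the weakest signal on the dim array that still passed as well above background. The level of KCS15 at 0 h thus stood above all 5 later arrays, the solvent control among them. The remaining 9 condensing enzyme genes lay between 0.89 below (KCS16) and 0.42 above (KCS3) their 0 h level at 1 h. KCS10 (AT2G26250), known as FIDDLEHEAD for its part in keeping organ surfaces from fusing, read 3.43, 3.14 and 2.80 over the first 3 arrays of the time course, and between 3.14 and 3.33 on the arrays of 6 h.

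These 9 genes did not share an order of arrays. KCS16 (AT4G34250), which acts on the longest chains in trichomes, read 1.36, 0.47, 1.37 and 1.35 over the time course, 1.05 in the XVE and 1.71 in the DMSO control, lowest at 1 h like KCS8. KCS11 (AT2G26640) was also lowest then, with 0.30 against 0.39 to 0.89 elsewhere. So was KCS5 (AT1G25450), a close relative of KCS6, as a mean of 2 probes, with -0.87 against -0.81 to -0.23. The brighter of these probes was instead lowest at 3 h, at 1.47 against 1.54 at 1 h. KCS11 and KCS5 stayed under 2-fold over the 6 arrays, and KCS16 did not. KCS3 (AT1G07720) ran from -1.93 in the XVE control to -1.30 with DMSO, KCS9 (AT2G16280) from -1.06 at 6 h of estradiol to -0.52 with DMSO, and KCS19 (AT5G04530) from 0.24 in the XVE control to 0.83 at 3 h. KCS4 (AT1G19440) lay between -0.59 and -0.14 and KCS17 (AT4G34510) between -2.10 and -1.64, the narrowest courses of the family, both with their lowest value in the DMSO control.

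**Figure D2:**
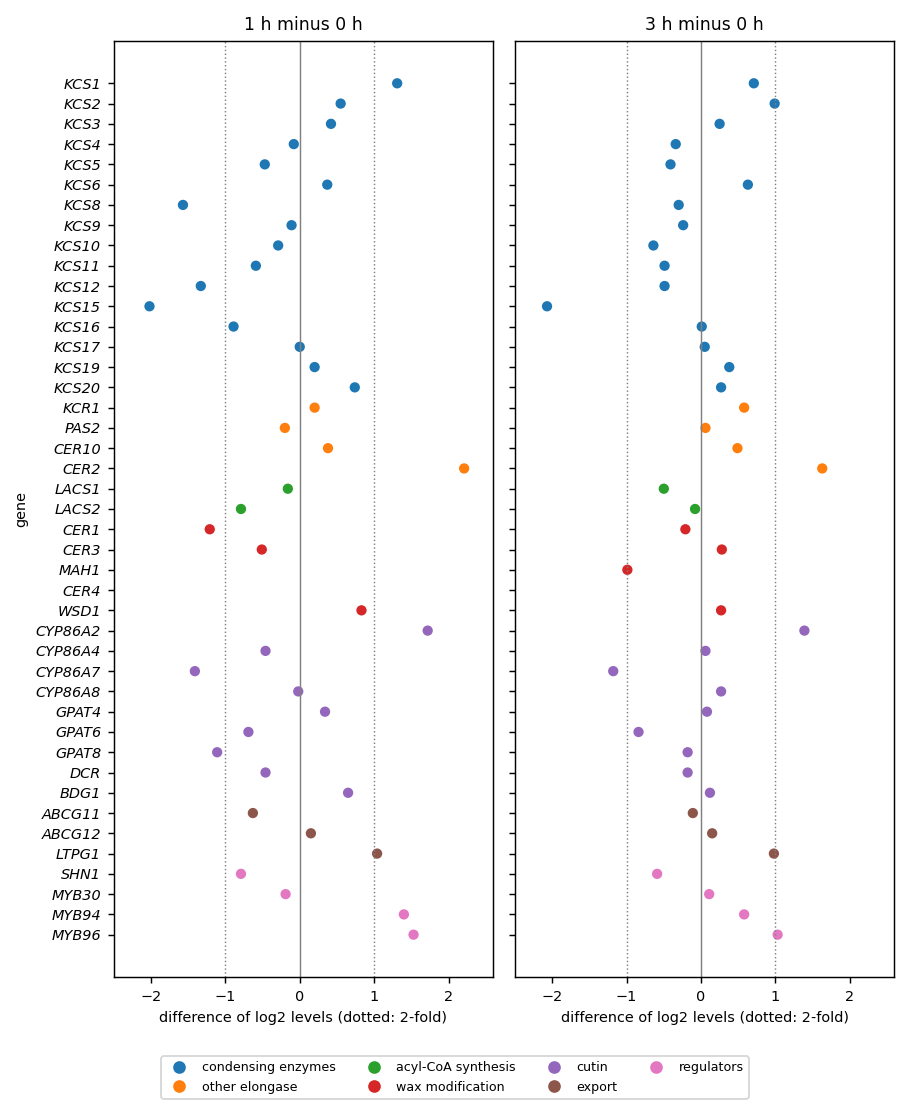
Difference from 0 h at 1 h (left) and 3 h (right) in log2 units, 1 point per gene, with dotted lines at 2-fold and colours for the roles. At 1 h 6 points lie right of the upper dotted line and 6 left of the lower one, CER1 and GPAT8 only through a dim probe, and at 3 h 3 and 2; CER4, and MAH1 at 1 h, have no point because they were not well above background on both arrays.

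Of the 5 wax-forming enzyme genes, 3 were measured at 1 h, and 1 of them, CER1, was past 2-fold lower as a mean of its probes. Among all genes 6.38% were. CER1 (AT1G02205), which with CER3 makes the alkanes that dominate leaf and stem wax, read -0.69, -1.90, -0.90 and -0.25 over the time course, with -0.89 in the XVE and -0.41 in the DMSO control. Its 1 h value was the lowest of the 6 and its 6 h value the highest. The difference of -1.21 at 1 h is a mean of 2 probes, of which the dimmer was not well above background at 1 h. The probe well above background on all 6 arrays gave -0.85, inside 2-fold. CER3 (AT5G57800) was also lowest at 1 h and highest at 6 h, with a smaller spread: 2.02, 1.51, 2.30 and 2.37 over the time course, then 2.20 and 2.34. WSD1 (AT5G37300), the wax ester synthase, was instead highest at 1 h (-0.67), against -1.50 at 0 h, -1.23 and -1.77 at 3 and 6 h, -2.75 in the XVE and -1.73 in the DMSO control. MAH1 (AT1G57750), the midchain alkane hydroxylase, read -3.81 before estradiol, -4.80 after 3 h, -4.97 after 6 h and -4.46 with DMSO, and it was dim at 1 h, at least 1.64-fold below 0 h, and in the XVE control, at least 1.21-fold below. CER4 (AT4G33790), the alcohol-forming reductase, was well above background only at 3 h (-4.92) and 6 h (-5.01), close to the weakest signals that pass, and no fold is given for it.

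The acyl-CoA synthetase genes activate fatty acids for wax and cutin. LACS2 (AT1G49430) read 0.06, -0.73, -0.01 and -0.33 over the time course, with -0.30 in the XVE and 0.30 in the DMSO control. It was lowest at 1 h, where its 2 probes, both well above background, differed from 0 h by -0.23 and -1.36, so that the brightest-probe setting puts it past 2-fold lower. LACS1 (AT2G47240) stayed between 0.94 and 1.44, and its 3 probes did not share a direction in any comparison with 0 h.

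Among the 9 cutin genes, 1 was at least 2-fold higher and 2 lower at 1 h, against 6.31% and 6.38% of all genes. GPAT8 was among the lower only through a dim probe, and the median was -0.46. CYP86A2 (AT4G00360), a fatty acid ω-hydroxylase that makes cutin monomers in leaves, read -1.43, 0.29, -0.04 and -0.68 over the time course, with -0.28 in the XVE and -0.33 in the DMSO control. It was lowest at 0 h; both of its probes were higher at 1 h, by 1.96 and 1.48, and at 3 h, by 1.54 and 1.25. CYP86A7 (AT1G63710), of the same subfamily, had the reverse order, with 5.54 at 0 h and then 4.12, 4.35 and 4.92, and 4.01 and 4.46 in the XVE and DMSO controls. These are differences from 0 h of -1.41, -1.18 and -0.61 over the time course and of -1.53 and -1.08 on the other slide, so the 0 h array was the highest by at least 0.61. CYP86A4 (AT1G01600), between 0.86 and 1.46, and CYP86A8 (AT2G45970), known as LACERATA, between 0.05 and 0.77, stayed within 2-fold over all 6 arrays.

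GPAT6 (AT2G38110), an acyltransferase known from flower cutin, was at -0.64 at 0 h and at -1.33, -1.48 and -1.75 at 1, 3 and 6 h, with -1.43 in the XVE and -1.47 in the DMSO control. All 5 later arrays lay below 0 h by 0.69 to 1.11. GPAT4 (AT1G01610) and GPAT8 (AT4G00400) act together in leaf and stem cutin. At 1 h GPAT4 was 0.34 higher, and the mean of the 3 probes of GPAT8 was -1.11 from 0 h. These probes did not agree, at -1.06, -2.27 and 0.00, the last from the brightest, and the one at -2.27 was dim at 1 h. The mean of the other 2 was -0.53, inside 2-fold. In the genome GPAT4 lies next to CYP86A4 with 0 coding genes between them, and GPAT8 and CYP86A2 have 3 coding genes between them. At 1 h CYP86A4 was 0.46 lower while its neighbour GPAT4 was higher. DCR (AT5G23940), an acyltransferase that puts hydroxylated acids into cutin, was at 2.27, 1.81, 2.09 and 1.77 over the time course and lowest in the XVE control (1.04), with 1.65 in the DMSO control. BDG1 (AT1G64670), a hydrolase-fold protein of the epidermal wall, was highest at 1 h (0.48) and lowest in the XVE control (-0.82).

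Of the export genes, LTPG1 was 2.05-fold above 0 h at 1 h. LTPG1 (AT1G27950) encodes a membrane-anchored lipid transfer protein and read 2.12, 3.15, 3.10 and 2.47 over the time course, with 2.38 in the XVE and 2.54 in the DMSO control. The transporter genes ABCG11 (AT1G17840), between -0.75 and -0.11, and ABCG12 (AT1G51500), between -1.68 and -0.90, stayed within 2-fold on all 6 arrays. The 4 probes of ABCG11, 1 of them dim on 4 arrays, did not share a direction in any comparison with 0 h.

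**Figure D3:**
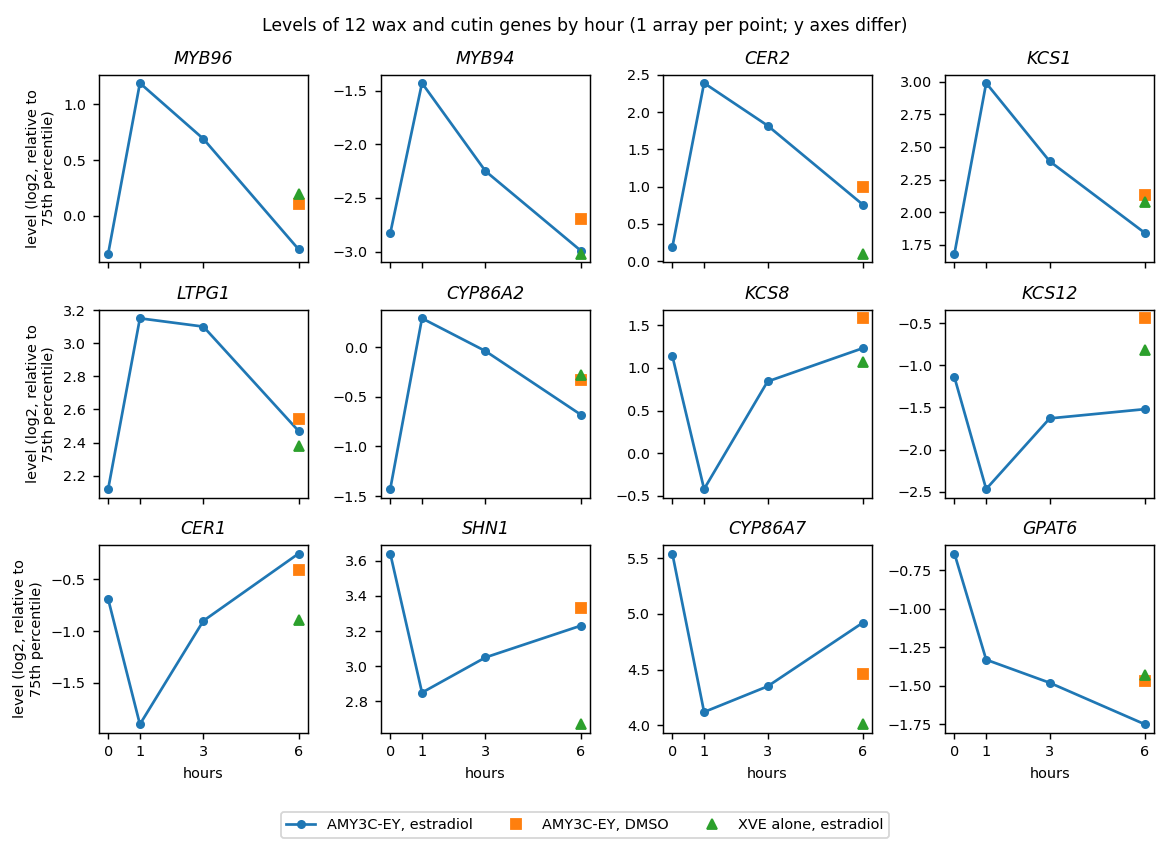
Levels of 12 cuticle genes (log2, with each array's 75th percentile at 0; the y axes differ and do not start at 0) against hours, 1 array per point, with the AMY3C-EY estradiol course as a line and the DMSO (square) and XVE (triangle) controls at 6 h. MYB96, MYB94, CER2, KCS1, LTPG1 and CYP86A2 peak at 1 h, KCS8, KCS12 and CER1 have their lowest value there, and SHN1, CYP86A7 and GPAT6 are highest at 0 h.

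Several wax genes are known from the literature as targets that MYB94 or MYB96 binds: KCS1, KCS2, KCS6, KCR1, CER2, CER3, CER4, CER10 and WSD1. This set was put together after the values were seen, so it supports nothing and is described only. At 1 h 7 of its 8 measured genes were above 0 h, with a median of 0.46 and CER3 as the exception (-0.51). At 3 h all 8 were above 0 h, by 0.27 to 1.63 with a median of 0.61. Among all genes 44.7% were above 0 h at 1 h and 46.0% at 3 h. By 6 h of estradiol the set's median was 0.17, with 5 of 8 above 0 h, where 44.1% of all genes were. With DMSO the median was 0.34, with 6 of 8 above (48.5% of all genes). The XVE control had a median of 0.17 and 5 of 8 above (48.6%).

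At 3 h the number of cuticle genes apart from 0 h was smaller. CER2, CYP86A2 and MYB96 were still past 2-fold above 0 h and KCS15 and CYP86A7 past 2-fold below it, 3 and 2 of 42 measured, against 2.38% higher and 5.00% lower among all genes. These 5 genes had also been at least 2-fold apart at 1 h, in the same direction. KCS2 (0.99) and LTPG1 (0.98) lay just under 2-fold higher and MAH1 (-0.99) just under 2-fold lower. Under quantile scaling 45.4% and under the normexp background correction 15.4% of all calls at 3 h were higher, against 32.2% on the scale used here. Under normexp CYP86A2 (0.94), MYB96 (0.76) and CYP86A7 (-0.99) were inside 2-fold, and CYP86A7 was so with quantile scaling (-0.82) and cyclic loess (-0.91) too.

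At 6 h of estradiol no cuticle gene was at least 2-fold above 0 h. KCS15 (-1.54), MAH1 (-1.17) and GPAT6 (-1.11) were lower, 3 of 42, against 2.84% lower and 2.61% higher among all genes. KCS15 was a weak signal at 6 h (-3.33), and MAH1 (-4.97) lay near the weakest level that passed as well above background there (-5.13). Under normexp MAH1 (-0.63) and GPAT6 (-0.97) were inside 2-fold, and so was GPAT6 (-0.33) without the filter on dim probes, which averages in a probe well above background on no array. The genes farthest above 0 h were CYP86A2 (0.75), KCS2 (0.65) and CER2 (0.57).

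**Figure D4:**
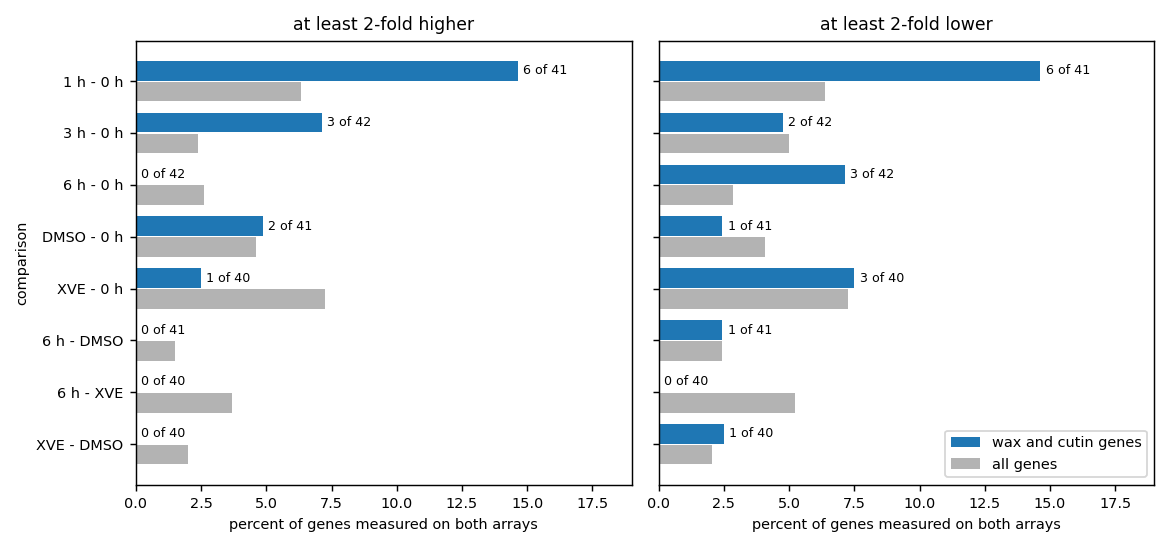
Percent of measured genes at least 2-fold higher (left) and lower (right) in 8 comparisons, for the cuticle genes (blue, with their counts) and for all genes (grey). Bars start at 0; the blue bars are longest at 1 h, 14.6% in each direction, and they share arrays between comparisons, so the 8 are not independent.

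Taking 1 h and 3 h together within the slide of the time course, 14 of 40 genes were higher on both of these arrays than on both the 0 h and the 6 h array, against 19.7% of all genes, and 9 were lower on both, against 24.9%. When the XVE and DMSO arrays of the other slide were added to the compared arrays, 9 genes were higher (KCS1, KCR1, CER10, CER2, WSD1, CYP86A2, LTPG1, MYB94 and MYB96), against 9.68% of all genes. In the same comparison 5 were lower (KCS5, KCS8, KCS11, KCS12 and CER1), against 11.2%, and 4 with only the probes well above background on all 6 arrays (11.4%), CER1 being the one left out. With the brightest probe per gene 8 were higher (10.4% of all genes), CER10 being left out, and 6 lower (11.4%). The brighter probe of CER10 read 1.79 at 0 h, 1.69 at 1 h and 1.77 at 3 h. Both groupings of arrays were chosen after the data were seen. Of the genes higher at 1 h and 3 h, CER2, KCS1, LTPG1, MYB94, MYB96 and CYP86A2 were those at least 2-fold above 0 h at 1 h.

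Genes for abscisic acid and water stress responses had a median above 0 h at 1 h and 3 h and on every array of 6 h. Of 14 measured, 8 were at least 2-fold above 0 h at 1 h and none as far below, against 6.31% higher among all genes. The median was 1.11, with differences from -0.79 to 5.43. At 3 h 7 of 14 were at least 2-fold above, also with a median of 1.11, against 2.38% of all genes. Farthest above at 1 h were LTI30, a dehydrin gene, at -2.89 at 0 h and 2.53 at 1 h, and RD20, a caleosin gene, at -1.27 and 2.69. The summed level of the list, on the linear scale relative to the 75th percentile, was 73.5, 168, 130 and 97.6 over the time course. It was 81.9 in the XVE and 112 in the DMSO control, and the brightest genes weigh most in such a sum. At 6 h 7 of 14 were at least 2-fold above 0 h both with estradiol (median 1.07, against 2.61% of all genes) and with DMSO (median 1.21, against 4.61%), when no cuticle gene and 2 cuticle genes were. In the XVE control 5 of 14 were (median 0.76, against 7.25%), and 1 cuticle gene. The part of the stress genes in the values of the cuticle genes was not tested.

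Markers of the epidermis did not share an order of arrays: of 11, 4 were highest at 0 h (ATML1, PDF1, PDF2 and ALE2), 2 at 1 h, 2 at 3 h and 1 on each of the 3 arrays of 6 h. Their summed level, in which the brightest genes weigh most, was highest at 0 h (12.4). It lay between 8.20 (XVE) and 10.3 (6 h) on the 5 later arrays, with 9.76 at 1 h and 9.89 at 3 h. ATML1, a homeobox gene that specifies epidermal identity, was at -0.62 at 0 h and -1.40, -1.28 and -1.51 at 1, 3 and 6 h, with -1.34 and -1.17 in the XVE and DMSO controls. PDF1 was likewise highest at 0 h (1.98) and between 1.12 and 1.54 afterwards. ACR4 went the other way, above 0 h on all 5 later arrays by 0.09 (DMSO) to 0.55 (1 h). Of 11 markers none was at least 2-fold above 0 h at 1 h and 1 was lower, against 6.31% and 6.38% of all genes. The median was -0.44, with 3 of 11 above 0 h, where 44.7% of all genes were. The cuticle genes that were highest at 0 h (SHN1, CYP86A7, GPAT6, DCR, KCS4, KCS10, KCS11, LACS1 and ABCG11, 9 of 40) made up a share near that among all genes, 21.9%. The part of the epidermis in the cuticle values was not tested.

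After 6 h with DMSO, CYP86A2 (2.14-fold) and KCS2 (1.00 on the log2 scale) stood at least 2-fold above 0 h and CYP86A7 (-1.08) below, 2 and 1 of 41, against 4.61% higher and 4.07% lower among all genes. The XVE plants with estradiol had CYP86A2 (1.15) above 0 h and CYP86A7 (-1.53), WSD1 (-1.25) and DCR (-1.23) below, 1 and 3 of 40, against 7.25% in each direction. CYP86A2 was thus above 0 h, and CYP86A7 below, on all 5 later arrays, by 0.75 to 1.72 and by 0.61 to 1.53. All of these comparisons share the single 0 h array, and both controls lie on the other slide. Under normexp CYP86A2 stood 0.62 above 0 h with DMSO and 0.91 in the XVE control, KCS2 0.61 with DMSO, and WSD1 was at -0.66 in the XVE control, all inside 2-fold.

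The 6 h estradiol array can be set against each control. Against DMSO, which keeps the line and the hour, KCS12 was 1.08 lower and no gene was at least 2-fold higher, 1 and 0 of 41, against 2.42% lower and 1.51% higher among all genes. The median was -0.22 against -0.03 for all genes. Above DMSO were 14 of the 41, where 47.1% of all genes were above, and 27 were below. All 4 regulators were among those below, by -0.41 (MYB96) to -0.11 (SHN1). So were all 4 elongation genes outside the KCS family, by -0.36 to -0.06, although the probes of PAS2 disagreed (0.15 and -0.27). KCS12, the only gene past 2-fold (-0.92 under normexp), was also the only one of 40 that was higher on both arrays of the DMSO slide than on all 4 of the other, against 14.2% of all genes. Lower on that slide were KCS4, KCS19, DCR and BDG1, 4 of 40 against 13.4%.

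Against XVE plants with estradiol, 0 of 40 were at least 2-fold apart in either direction, against 3.70% higher and 5.22% lower among all genes. The farthest were WSD1 (0.97), CYP86A7 (0.92) and ABCG12 (-0.76). KCS15, dim on both controls, was at least 2.35-fold above DMSO and at least 1.69-fold above XVE. Photosynthesis genes were far apart in the same comparison, 14 of 15 being lower by 2-fold or more in AMY3C-EY plants. Their summed level was 1010 in the XVE control and 349 to 621 on the others, and their part in the cuticle values was not tested.

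Against all 3 controls at once (0 h, DMSO and XVE), 0 of 40 genes passed 2-fold, where 0.132% of all genes were higher and 0.181% lower. At any size 5 genes were above all 3 controls (KCS19, CER1, CER3, CYP86A4 and BDG1, against 17.9% of all genes) and 10 below (KCS5, KCS9, KCS11, KCS12, KCS20, CER10, LACS2, GPAT4, GPAT6 and GPAT8, against 23.1%). Some of these places rest on very small differences: CER3 (0.03 from DMSO), LACS2 (-0.03 from XVE) and GPAT4 (-0.04 from 0 h). CER10 read -0.02 at both 6 h and 0 h, with its probes at -0.53 and 0.53 from 0 h. The difference from the nearest control reached 0.27 for KCS19, at 0.72 against 0.24 to 0.45, and -0.38 for KCS12, at -1.52 against -1.14 to -0.44. AMY3 stood above all 3 controls, at 3.88 against 1.34 to 2.53.

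**Figure D5:**
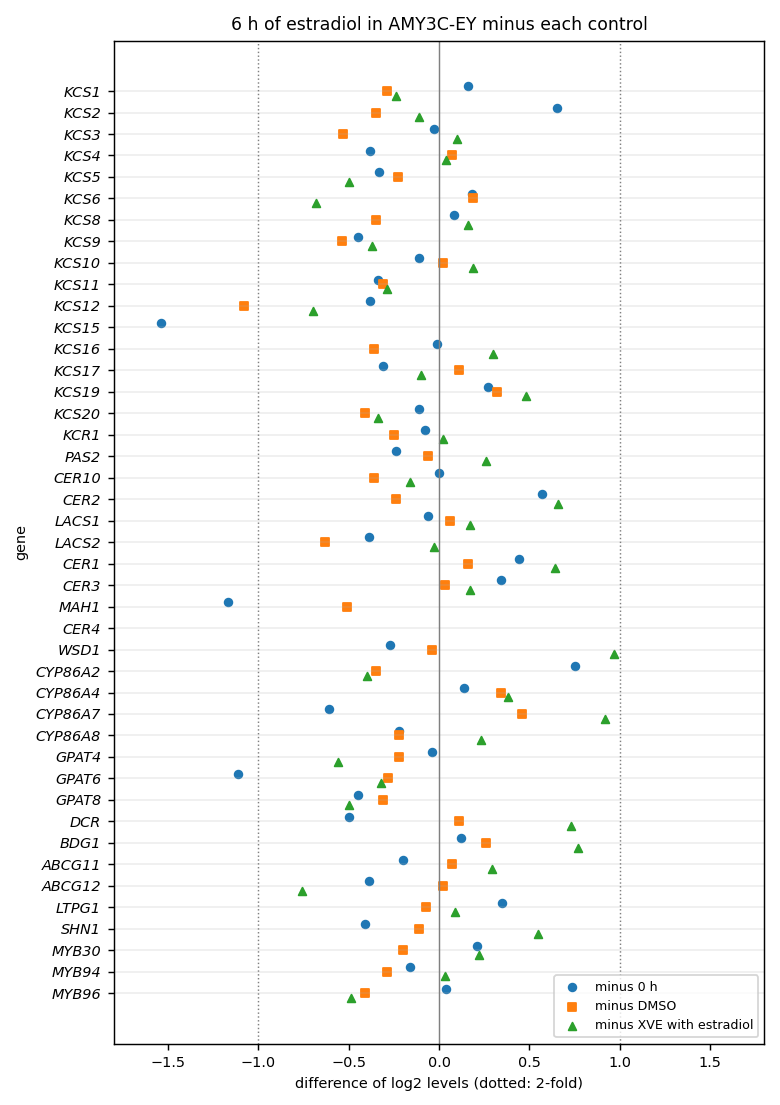
Level at 6 h of estradiol in AMY3C-EY plants minus that at 0 h (circle), with DMSO (square) and in XVE plants with estradiol (triangle), in log2 units, 1 row per gene, with dotted lines at 2-fold. Points left of the lower line are KCS15, MAH1 and GPAT6 against 0 h and KCS12 against DMSO, and no point lies right of the upper line; DMSO and XVE values also cross slides.

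The 2 controls of 6 h lay on the same slide and differed in line and in estradiol. WSD1 was 1.02 lower in XVE plants than with DMSO (-0.38 under normexp) and no gene was at least 2-fold higher, 1 and 0 of 40, against 2.06% lower and 2.01% higher among all genes. KCS6 (0.87) and ABCG12 (0.78) were the farthest above and CER2 (-0.90) followed WSD1 below. Of the 40, 10 were higher in XVE plants, where 47.9% of all genes were, and 30 were lower. The median was -0.18 against -0.02 for all genes. The XVE array held the lowest value of the 6 for 12 of the 40 genes (KCS3, KCS19, KCR1, PAS2, CER2, WSD1, CYP86A7, CYP86A8, DCR, BDG1, SHN1 and MYB94), against 21.8% of all genes. It was also the dimmest array and the one with the most signal from photosynthesis genes. The part of either in these values was not tested.

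Over the 6 arrays, the distance between a cuticle gene's highest and lowest level had a median of 0.86 (0.45 to 2.30), against 0.85 for all genes, and 22 of 40 stayed under 2-fold, 55.0% against 62.8%. The 1 h array held the highest value for 9 of the 40 (21.7% of all genes) and the lowest for 12 (25.5%), the 0 h array the lowest for 5 (17.6%), the 6 h estradiol array the lowest for 5 (13.4%) and the DMSO array the highest for 8 (12.9%). All 3 arrays of 6 h lay below 0, 1 and 3 h for KCS4, KCS17, WSD1 and DCR (7.69% of all genes) and above them for 0 of 40 (8.49%).

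Cuticle genes outside the 43, taken from a list of 38, gave 3 at least 2-fold higher and 3 lower of 34 measured at 1 h, with a median of -0.23, against 6.31% and 6.38% of all genes. HDG1, a homeobox factor that regulates the cuticle genes BDG1 and KCS10, read 0.11, 1.99, 0.44 and 0.52 over the time course, with -0.13 and 0.02 in the XVE and DMSO controls. DEWAX, a repressor of wax genes in the dark, was at 2.21, 3.49, 2.06 and 2.32 over the time course and 2.76 and 2.88 in the XVE and DMSO controls. The repressor DEWAX and the activators MYB94 and MYB96 were thus all highest at 1 h. CUS2, a cutin synthase gene, was 1.57 lower and the lipase family gene LTL1 1.50 lower at 1 h.

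SHN2 and SHN3, the closest relatives of SHN1, were highest at 0 h as SHN1 was. SHN2 was at -1.18 at 0 h and between -2.70 (XVE) and -1.61 (6 h) on the later arrays, and SHN3 at -1.93 and between -3.34 (XVE) and -2.69 (6 h). LTP2, a lipid transfer protein gene, stood above 0 h on all 5 later arrays, by 1.95 after 3 h, 1.70 after 6 h, 2.05 with the solvent and 1.40 in the XVE control, and read 2.48 after 1 h against 1.76 before. Of 15 suberin genes, only 5 were measured at 1 h, namely FACT, FAR1, ABCG2, ABCG20 and MYB41. These were well above background on all 6 arrays. CYP86B1, ASFT, FAR5, ABCG6 and MYB9 were dim on some arrays. CYP86A1, GPAT5, GPAT7 and MYB107 were not well above background on any array, and FAR4 had no probe.

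Of the 43 genes 27 were read by 1 probe in use and 16 by several. In 8 of those 16 all probes went the same way between 0 h and 1 h, and KCS6, KCS9, KCS10, CER10, LACS1, GPAT8, ABCG11 and MYB30 were those whose probes disagreed. These 8 also disagreed over only the probes well above background on both arrays. Agreement was lowest between the other slide and 0 h. All probes agreed there in 5 of 16 with DMSO and in 4 of 16 in the XVE control. It was highest between 6 h of estradiol and the XVE control, with 12 of 16. Cross-reaction of a probe with a close relative, such as between KCS genes or between CYP86A2 and the other CYP86A genes, was not checked, since probe sequences were not used here.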

How the data were processed

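Total RNA of 6 samples was labelled with the green dye Alexa 555, per the labels' protocols, and each was hybridised to 1 array. The intensity values are those of the authors' deposited scanner files, made with Agilent Feature Extraction 10.5.1.1 per the submitters' processing notes; the processed intensity is background-subtracted and not scaled between arrays, per the file headers. Flags of 0 or 1 in the deposited files mark each spot as above background, saturated or an outlier. The authors also deposited log2 values per probe, with no stated scale. Compared with the scanner files, 100.0% of its probes lay within 0.01 of a constant offset (-0.009 to -0.006) from the main scale on each array, so its scale, centring and direction are known, and it nearly repeats that scale. The medians of its columns are -2.085, -2.122, -2.146 and -2.114 for 0, 1, 3 and 6 h, -2.087 for XVE and -2.145 for DMSO.

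Levels are log2 processed intensities from which the 75th percentile of that array was subtracted, taken over 43803 non-control spots. Outlier spots were left out, spots of a probe averaged, and 139 of 43603 probes without an unflagged spot on every array dropped. Through RefSeq accessions and a gene table of TAIR10.1, used for names and gene order only, 34178 of the remaining probes matched 1 locus and 9286 none. Probes well above background nowhere were left out, the rest averaged per gene, and a gene was measured on an array where any of its probes passed. In all, 21297 genes were used, 17995 of them on all 6 arrays. No spot was saturated (0). With 1 array per group no test was possible, and genes at least 2-fold apart were counted. Against all 3 controls a gene had to pass 3 times, and the difference nearest 0 is given.

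Samples were grouped by source name. The 43 members, the other gene lists and the comparisons were chosen with earlier results of these data known. Every member could be named; of other lists, up to 4 genes per comparison with the largest differences, and ATML1, PDF1, PDF2, AMY3 and defining cell type markers whatever their values; SHN2, SHN3, LTP2 and DEWAX are named under the same rule for at least 1 comparison. Alternatives were quantile scaling, cyclic loess, normexp with an offset of 50 (on median signals, since the files used hold no mean signal), the deposited log2 table, keeping dim probes, genes measured on all 6 arrays, the brightest probe per gene, and dropping each control in turn; averaging only probes well above background on every array compared was added after the data were seen. The counting was tested on simulated data. R 4.3.3 with limma 3.58.1 and Python 3.11.15 were used.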

Additional observations from a re-analysis of the deposited data

How the results depend on the processing

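Of 29 differences of at least 2-fold between a cuticle gene's levels, 12 stayed past 2-fold under every alternative run for them: CER2 at 1 h (1.98 to 2.27) and 3 h (1.59 to 1.69), MYB96 (1.18 to 1.56), KCS1 (1.28 to 1.49), CYP86A2 (1.40 to 1.96) and KCS8 (-1.57 to -1.35) at 1 h, CYP86A7 at 1 h and in both 6 h controls, DCR in the XVE control, and KCS15 at 3 h and 6 h. GPAT8 at 1 h turned from -1.11 to 0.00 with the brightest probe. Under normexp MYB94 (0.78) and LTPG1 (0.93) at 1 h were under 2-fold higher, and CER1 at 1 h reached -0.49. With only probes well above background on every array compared, added after the data were seen, CER1 (-0.85) and GPAT8 (-0.53) at 1 h were inside 2-fold, and no other called difference of a cuticle gene was. GPAT6 at 6 h was inside 2-fold without the filter on dim probes (-0.33), and LACS2 at 1 h past it with the brightest probe (-1.36). With normexp, against 0 h, the counts were 2 lower at 1 h, 1 higher at 3 h, 1 lower at 6 h, 0 higher in the DMSO and 0 in the XVE control; 0 were lower at 6 h against DMSO, 1 was higher against XVE (CYP86A7), and 0 were lower in XVE against DMSO. At 3 h quantile scaling and cyclic loess each gave 5 higher (KCS2 and LTPG1 added) and 1 lower; quantile scaling gave 2 higher against XVE (CYP86A7 and WSD1). Genes measured on all 6 arrays gave 1 lower at 3 h and 1 at 6 h, and the brightest probe 1 higher with DMSO. Without the filter on dim probes 1 was higher at 6 h, 2 lower with DMSO, 2 higher and 5 lower on the XVE array, all against 0 h; 1 was higher at 6 h against DMSO, 2 against XVE, and 3 lower in XVE against DMSO, the added genes being KCS15, MAH1 and CER4. Those are dim on at least 1 array compared. Against all 3 controls the counts were 0 and 0 under every alternative, leaving out each control included. Normexp moved the median of all genes to -0.19 (3 h), -0.13 (6 h) and -0.11 (DMSO) against 0 h, -0.17 for 6 h against XVE and 0.15 for XVE against DMSO. It lowered the all-gene counts at 1 h to 621 higher and 519 lower from 1171 and 1183, and no filter raised them to 1840 and 1952. Apart from the constructions named, the cause was not tested. No replicate could be left out, because each group is 1 array. No paired analysis was possible because each group is 1 array and no result comes from a test.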
